A study of Mus musculus with 8 samples.

Results

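The enzymes of the tricarboxylic acid (TCA) cycle and of mitochondrial fatty acid oxidation were followed in cultured skin fibroblasts of 2 mouse strains, an Nd2-mutant and a control strain. The set holds 35 genes: 5 that feed pyruvate into the cycle, 12 of the cycle itself, 5 cytosolic or malic enzymes, 2 of the carnitine shuttle, 8 of the beta-oxidation spiral and 3 of the electron transfer flavoprotein system. All probes annotated with a member's gene symbol were taken, which gave 50 probes for 33 of the 35 members among the 18138 gene symbols of the array. No probe carried the symbol Me1 or Hadha. Of the 50 probes, 41 were tested, for 31 genes, because they were detected (detection p-value under 0.01) on all 4 arrays of at least 1 strain. 38 of the 41 were detected on all 8 arrays. The other 3, of Acadl and Acaa2, were missed on 1 control array each and passed through the Nd2-mutant arrays.

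The TCA cycle oxidises acetyl-CoA in the mitochondrial matrix and hands its electrons to NAD and FAD. Fatty acids enter the matrix through the carnitine shuttle and are shortened step by step by the beta-oxidation spiral, which yields more acetyl-CoA, and the electron transfer flavoprotein passes the electrons of its first step to ubiquinone. The NADH from both pathways is reoxidised by complex I of the respiratory chain, of which the mitochondrially encoded Nd2 protein is a subunit. The members that form this NADH in the matrix thus sit just upstream of the mutated complex, which does not hold for every member. All members are encoded in the nucleus.

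Fibroblasts came from the skin of 12-month-old mice of 2 conplastic strains, which carry the C57BL/6J nuclear genome with mitochondria of another strain. Nd2-mutant mice were C57BL/6J-mtALR/LtJ, with mice 28 and 32 male and 34 and 35 female. Control mice were C57BL/6J-mtAKR/J, with 16 and 17 male and 15 and 37 female. The Nd2 variant comes with the mitochondrial genome and is not driven by a transgene or limited to a cell type. Cells were cultured in DMEM with fetal calf serum, without treatment, and per the methods were used at the first passage. RNA of 1 culture per mouse was hybridised to 1 Illumina MouseRef-8 array, so that n = 4 per strain counts mice, and the number of arrays limits the precision. Values are intensities on a linear scale, which the authors quantile normalized in GenomeStudio, and an intensity says nothing of the level of one probe against another. In RNA from a whole culture, fewer cells of a type and less RNA per cell cannot be told apart.

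Between 41.5% and 44.2% of the 25697 probes were detected on each array. The array of control mouse 15 stood apart, with a mean correlation of 0.934 with the others, against 0.963 to 0.974 for the other 7. All 13 fibroblast markers on the array were tested, 0 of them were undetected, and their summed intensity ran from 54889 to 63255 in Nd2-mutant mice and from 46506 to 71240 in control mice. No adipocyte marker passed the filter, and Fabp4, Plin, Lep, Retn and Cidec were detected on 0 of 8 arrays.

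No member passed the adjusted threshold between the strains. With limma and Benjamini-Hochberg adjustment over all 10414 tested probes, 0 of the 41 member probes had an adjusted p under 0.05 (all tested probes: 0%), and the smallest adjusted p of a member was 0.639. At an unadjusted p under 0.05, 3 of the 31 member genes were higher in Nd2-mutant fibroblasts (Idh1, Acaa2 and Aco1). That is 9.68% against 5.17% of all tested genes, and 0 member genes were lower, against 3.89%. A gene was counted if any of its tested probes passed, among the members and among all genes. Acaa2 was counted through 1 of its 4 tested probes. The count of 3 changed when single mice were left out, and the share of all tested genes changed with it. It was 1 without Nd2-mutant mouse 28 (all tested genes: 2.85%) and 1 without control mouse 16 (2.65%), 8 without control mouse 17 (9.03%) and 6 without control mouse 37 (7.23%). The methods' t-test on the same values also left 0 member probes past the adjusted threshold and had 2 past the unadjusted one. The share of all tested probes past the unadjusted threshold in that test was not counted. The log2 fold change of intensity + 16, Nd2-mutant minus control, was above 0 for 30 of the 41 probes, or 73.2% against 50.2% of all tested probes. Its median was 0.12, against 0.00 over all tested probes, and it ranged from -0.30 to 0.93. Over the member probes detected on all 8 arrays the median was 0.11. Differences below are on this log2 scale, Nd2-mutant minus control unless stated, and are given with their SE from limma. The 95% intervals of the 41 fold changes reached between 0.27 and 0.95 to either side on the log2 scale, with a median of 0.41.

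**Figure D1:**
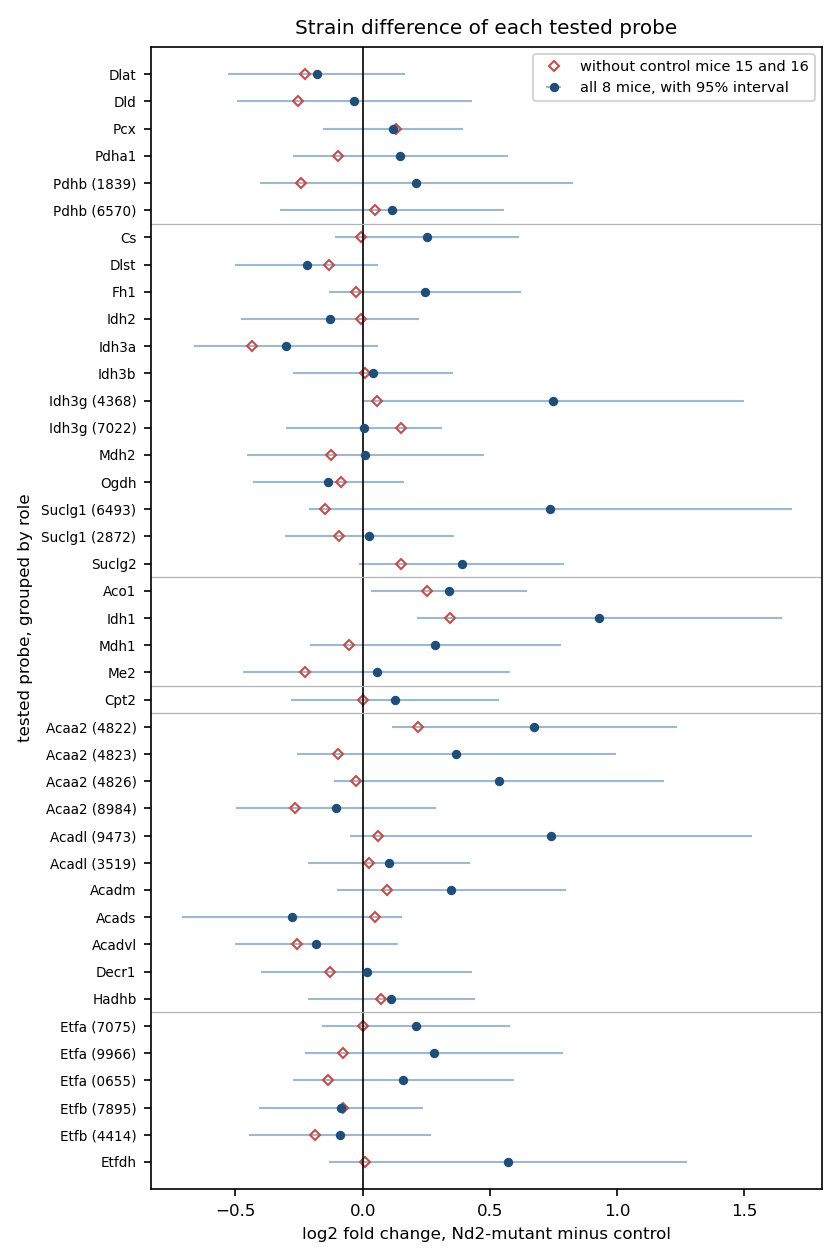
Log2 fold change (Nd2-mutant minus control) of the 41 tested probes, one row each and grouped by role, with 95% limma intervals over 8 mice (filled circles) and the value without control mice 15 and 16 (open diamonds). Only the intervals of Idh1, Aco1 and 1 Acaa2 probe lie wholly above 0, and most diamonds lie to the left of their circles.

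The excess of values above 0 went with low values in 1 or 2 control mice. Control mouse 15 had the lowest of the 8 intensities for 34 of the 41 member probes (82.9%), spread over 25 genes, while 31.4% of all tested probes were lowest in that mouse. It had the highest intensity for 1 member probe, that of Dlst, although 26.5% of all tested probes were highest there. Control mice 15 and 16 together were the 2 lowest for 18 probes of 14 genes, or 43.9% against 16.3% of all tested probes. These 14 genes were Pdha1, Cs, Fh1, Idh3g, Suclg1, Suclg2, Aco1, Idh1, Mdh1, Acaa2, Acadl, Acadm, Etfa and Etfdh. Without control mouse 15 the median log2 fold change of the member probes was 0.02, and without control mouse 16 it was 0.14. Without both it was -0.03, against -0.01 over all probes, and 17 of 41 probes were higher in Nd2-mutant fibroblasts (41.5% against 47.6%). In that comparison 0 member genes were higher at an unadjusted p under 0.05 by limma (all tested genes: 3.53%) and 1, Idh3a, was lower (3.16%). The exclusion of both mice was chosen after their values had been seen. Leaving out control mice with low values raises the control mean by construction, so the fall of the median is a description and not a test.

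**Figure D2:**
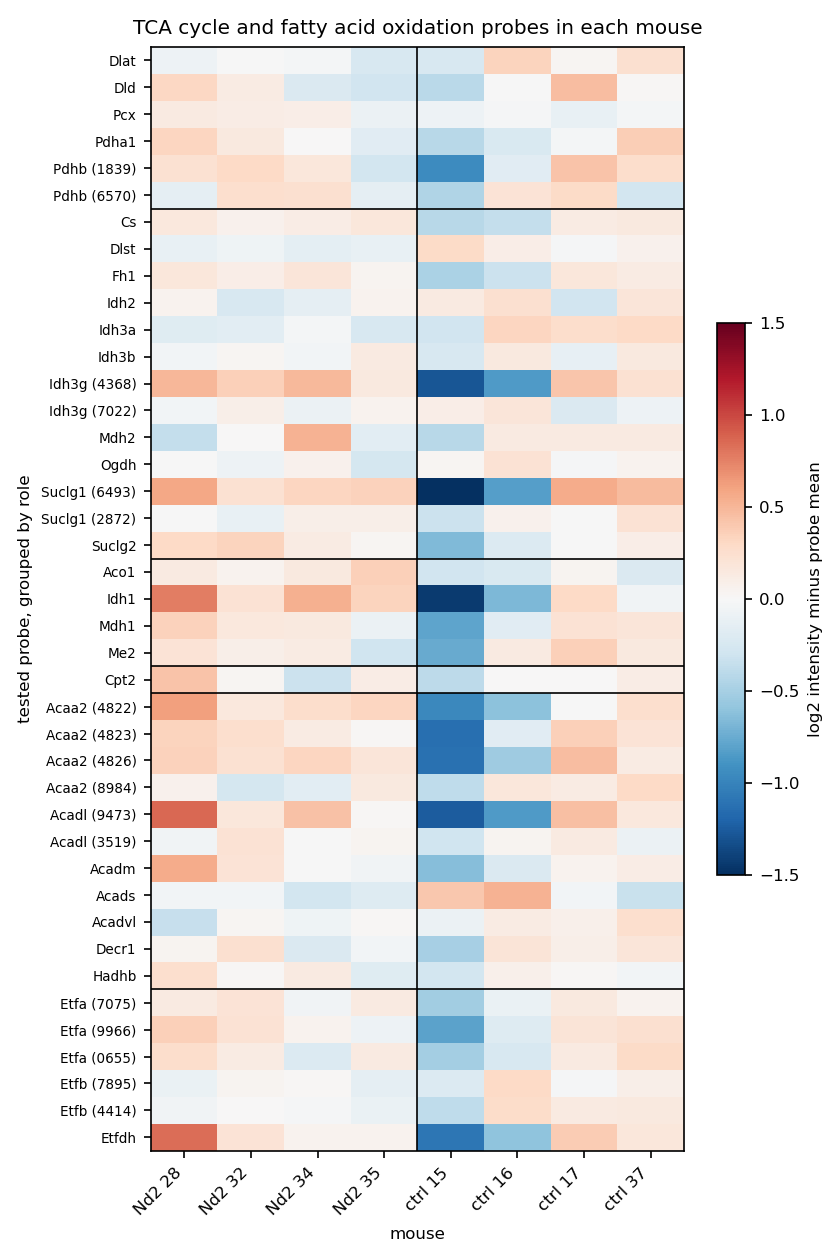
Heat map of the 41 tested probes (rows, grouped by role, last 4 digits of the probe identifier where a gene has several) in the 8 mice (columns), coloured by log2 intensity minus the mean of the probe. The column of control mouse 15 is blue for most rows, control mouse 16 is blue for a subset of the same rows, and Dlst and Acads are red in both.

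The mean of the centred log2 values over all member probes gives the same picture mouse by mouse. It was 0.19, 0.10, 0.07 and -0.00 in Nd2-mutant mice 28, 32, 34 and 35, and -0.52, -0.09, 0.14 and 0.12 in control mice 15, 16, 17 and 37. Control mice 17 and 37 thus lay within the range of the Nd2-mutant mice. The 6 roles had their lowest mean in control mouse 15, from -0.39 for the carnitine shuttle to -0.82 for the cytosolic and malic enzymes. Over all tested probes the same mean stayed between -0.03 and 0.01 in every mouse. Quantile normalization holds that mean nearly equal between arrays, so it could not have shown a shift of a whole array. The log2 SD between mice was larger in control than in Nd2-mutant mice for 35 of the 41 probes (85.4% against 73.4% of all tested probes), with a median of 0.32 in control and 0.15 in Nd2-mutant mice, against 0.29 and 0.18 over all tested probes.

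**Figure D3:**
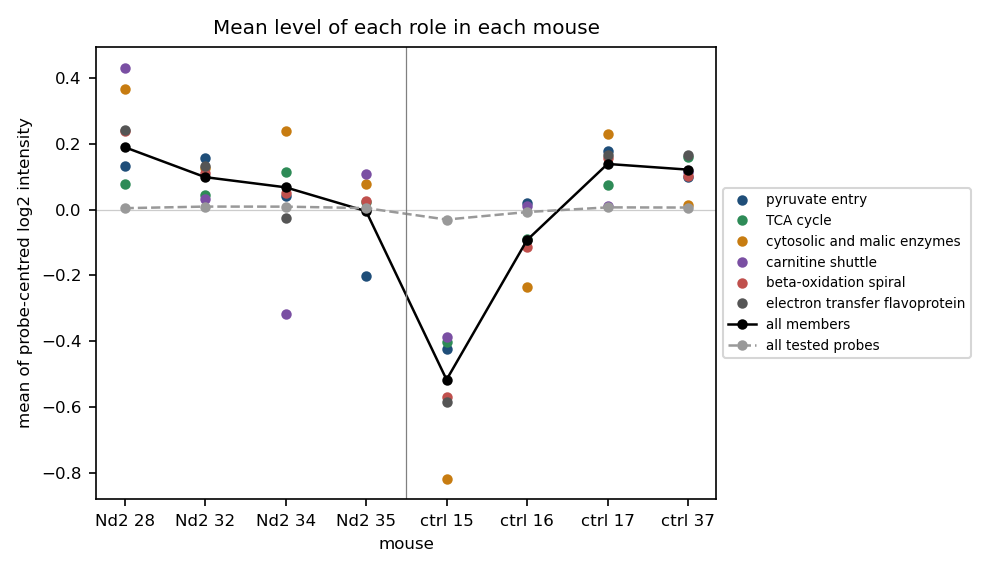
Mean of the probe-centred log2 intensity for each role (coloured points), for all member probes (black) and for all tested probes (grey) in each mouse. Lines only join points of one series. All 6 roles are lowest in control mouse 15, where the mean of all members is -0.52 and that of all tested probes -0.03. Quantile normalization holds the mean of all tested probes nearly equal between mice.

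Other nuclear genes of mitochondrial proteins were counted in the same way. Of 271 further tested probes, of 212 genes, that the array's annotation describes as nuclear genes encoding mitochondrial proteins, 53.5% were lowest in control mouse 15 and 21.4% had control mice 15 and 16 as the 2 lowest. Their median log2 fold change was 0.03, and -0.03 without both mice. The difference from the members was not tested. The summed intensity of the 6 of 8 endothelial markers tested was highest in control mouse 15. It was 2152 there, against 526 to 1074 in the other control mice and 558 to 1070 in Nd2-mutant mice. Flt1 alone made up 1301 of the 2152. Cdh5, Eng, Flt1 and Pecam1 were each highest in that mouse. Emcn was higher in control mouse 16 (272 against 249), and Tek in Nd2-mutant mice 28 and 35 (63.1 and 91.2 against 49.2). Kdr was detected on 0 arrays. The part of the endothelial markers in the member values was not tested.

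Idh1, the cytosolic NADP-dependent isocitrate dehydrogenase on chromosome 1, had the largest log2 difference of all members on the log2(intensity + 16) scale. With 1 added in place of 16 the difference was 0.95 for Idh1 and 1.15 for the Acadl probe ending 9473. Its intensity was 1197, 806, 1012 and 881 in Nd2-mutant mice 28, 32, 34 and 35, and 247, 430, 856 and 667 in control mice 15, 16, 17 and 37. Control mice 15 and 16 lay far below the rest, and control mouse 17 lay above Nd2-mutant mouse 32, so that the strains overlapped. The means were 974 ± 171 and 550 ± 267 (SD, n = 4 each), 1.77-fold apart. On the log2 scale the difference was 0.93 ± 0.32 (SE), with a limma p of 0.0159, an adjusted p of 0.639 and an exact permutation p of 0.0571. It was 0.61 without control mouse 15, 0.86 without control mouse 16 and 0.34 without both (limma adjusted p = 0.877).

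Aco1 on chromosome 4 encodes the cytosolic aconitase, which also serves as the iron-regulatory protein IRP1. It was the 1 member probe whose values were all higher in Nd2-mutant than in control mice, which 2.24% of all tested probes were. Nd2-mutant mice had 98.6, 91.8, 99.4 and 117, and control mice 15, 16, 17 and 37 had 69.6, 73.1, 91.7 and 73.8. Nd2-mutant mouse 32 and control mouse 17 read nearly the same, so that the gap between the strains was narrow. The log2 difference was 0.34 ± 0.14 (SE), with a limma p of 0.0325 and an adjusted p of 0.639. Its exact permutation p of 0.0286 is the lowest possible with 4 against 4 mice. Every probe without overlap has this p, so it adds nothing to the lack of overlap. Without control mice 15 and 16 the log2 difference was 0.25 (limma adjusted p = 0.877).

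The 2 other tested genes of this role were the cytosolic malate dehydrogenase Mdh1 and the mitochondrial malic enzyme Me2. Mdh1 differed by 0.29 ± 0.22 (log2, SE) and Me2 by 0.05 ± 0.24, and both were lowest in control mouse 15. Without control mice 15 and 16 these values were -0.06 and -0.23. 2 further Mdh1 probes were detected on 0 arrays.

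**Figure D4:**
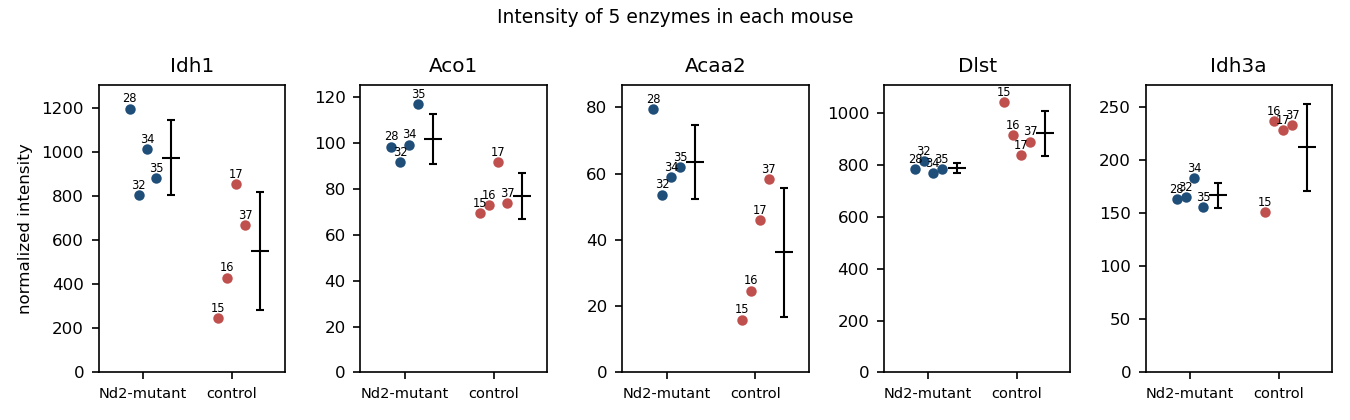
Normalized intensity of Idh1, Aco1, Acaa2 (the probe ending 4822), Dlst and Idh3a in each mouse (points, labelled by mouse number), with the mean and SD of 4 mice per strain beside them. Aco1 and Dlst do not overlap between the strains, and control mouse 15 is the lowest control for Idh1, Aco1, Acaa2 and Idh3a and the highest for Dlst.

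Within the TCA cycle itself, 11 of the 12 genes were tested with 13 probes, 9 of them higher and 4 lower, with a median log2 fold change of 0.03. The probe of Sucla2, the ATP-forming beta subunit of succinyl-CoA ligase, was detected on 0 arrays. Dlst on chromosome 12, the E2 succinyltransferase of the 2-oxoglutarate dehydrogenase complex, was the 1 probe with all Nd2-mutant values below all control values (2.13% of all tested probes). It read 784, 815, 769 and 785 in Nd2-mutant mice 28, 32, 34 and 35, and 1045, 917, 839 and 892 in control mice 15, 16, 17 and 37. The Nd2-mutant values lay close together, and control mouse 15 had the highest. The log2 difference was -0.22 ± 0.13 (SE), with a limma p of 0.114 and an adjusted p of 0.653. Its exact permutation p of 0.0286 follows from the lack of overlap. The study's own list of genes downregulated in Nd2-mutant fibroblasts includes Dlst. That list was made from these same arrays and is not separate support. Its coefficient for Dlst is a difference of linear intensities, unlike the log2 difference given here. Without control mouse 15 the log2 difference was -0.16, and without control mice 15 and 16 it was -0.13.

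Idh3a, Idh3b and Idh3g encode the subunits of the NAD-dependent isocitrate dehydrogenase and gave different values. Idh3a on chromosome 9, the catalytic subunit, was chosen for description after its values were seen. It read 163, 165, 183 and 155 in Nd2-mutant mice 28, 32, 34 and 35, and 151, 237, 228 and 233 in control mice 15, 16, 17 and 37. Control mouse 15 lay with the Nd2-mutant mice, and the other 3 control mice lay above all of them. The log2 difference was -0.30 ± 0.16 (SE, limma p = 0.0942, adjusted p = 0.648, exact permutation p = 0.143), the lowest of all member probes. Without control mouse 15 it was -0.45 and without both mice -0.43 (limma adjusted p = 0.877, though under 0.05 before adjustment). Idh3b differed by 0.04 ± 0.14, and its Nd2-mutant range of 852 to 968 lay within the control range of 739 to 976.

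Idh3g on the X chromosome, a regulatory subunit, had 2 tested probes with different values. The probe ending 4368 read 210, 189, 209 and 161 in Nd2-mutant mice 28, 32, 34 and 35, and 49.8, 72.7, 197 and 171 in control mice 15, 16, 17 and 37. Only control mice 15 and 16 were low, and the other 6 mice overlapped. Its log2 difference was 0.75 ± 0.34 (SE, limma p = 0.0503, adjusted p = 0.639, exact permutation p = 0.143), the largest in the cycle, and 0.06 without the 2 mice. The probe ending 7022 ranged from 1346 to 1532 in Nd2-mutant and from 1233 to 1625 in control mice and differed by 0.01 ± 0.14.

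The remaining genes of the cycle stayed between -0.14 and 0.39 apart from 1 Suclg1 probe. Suclg2, the GTP-forming beta subunit of succinyl-CoA ligase, differed by 0.39 ± 0.18 (log2, SE, limma adjusted p = 0.639, exact permutation p = 0.0571) with 219 ± 23.8 in Nd2-mutant and 166 ± 39.2 in control mice (SD, n = 4 each). Citrate synthase (Cs) differed by 0.25 ± 0.16 and fumarase (Fh1) by 0.25 ± 0.17, and without control mice 15 and 16 these became -0.01 and -0.03. Ogdh, the E1 subunit of the 2-oxoglutarate dehydrogenase complex that contains Dlst, differed by -0.14 ± 0.13. The mitochondrial Idh2 differed by -0.13 ± 0.16 and Mdh2 by 0.01 ± 0.21. For Mdh2 the control mice 16, 17 and 37 read 643, 643 and 643, and control mouse 15 read 437.

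The 5 genes of pyruvate entry were all tested, with 6 probes, 4 higher and 2 lower, a median log2 fold change of 0.12 and a smallest unadjusted limma p of 0.276. Pdhb, the E1 beta subunit of the pyruvate dehydrogenase complex on chromosome 14, had the largest value of the role. Its probe ending 1839 read 171, 180, 163 and 116 in Nd2-mutant mice 28, 32, 34 and 35, and 66.9, 125, 199 and 176 in control mice 15, 16, 17 and 37. Control mouse 15 was the lowest and control mouse 17 the highest of the 8. Its log2 difference was 0.21 ± 0.28 (SE, limma adjusted p = 0.824), and -0.24 without control mice 15 and 16. The second Pdhb probe differed by 0.12 ± 0.20, the E1 alpha subunit Pdha1 by 0.15 ± 0.19 and the E2 subunit Dlat by -0.18 ± 0.16. Pyruvate carboxylase (Pcx), which makes oxaloacetate, differed by 0.12 ± 0.12, and Dld, the E3 subunit that the pyruvate and 2-oxoglutarate complexes share, by -0.03 ± 0.21.

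In the carnitine shuttle, 1 of 2 genes was tested. The probe of Cpt1a, the outer-membrane carnitine palmitoyltransferase, was detected on 0 arrays. Cpt2 on chromosome 4, its inner-membrane partner, read 419, 314, 243 and 332 in Nd2-mutant mice 28, 32, 34 and 35, and 231, 309, 309 and 333 in control mice 15, 16, 17 and 37. The Nd2-mutant values enclosed those of the control mice other than mouse 15. Its log2 difference was 0.13 ± 0.18 (SE, limma adjusted p = 0.841), and 0.00 without control mice 15 and 16.

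Of the beta-oxidation spiral, 7 of 8 genes were tested with 11 probes, 8 higher and 3 lower, with a median log2 fold change of 0.11. Acaa2, the mitochondrial 3-ketoacyl-CoA thiolase that cleaves off acetyl-CoA, was measured by 4 tested probes, annotated to chromosome 18 where the table gives one. The probe ending 4822 read 79.6, 53.6, 58.9 and 62.0 in Nd2-mutant mice 28, 32, 34 and 35, and 15.9, 24.7, 46.0 and 58.3 in control mice 15, 16, 17 and 37. Control mouse 37 lay within the Nd2-mutant range, and control mice 15 and 16 were the lowest. Its log2 difference was 0.67 ± 0.25 (SE), with a limma p of 0.0224, an adjusted p of 0.639 and an exact permutation p of 0.0571, and it was 0.22 without the 2 mice. The other 3 probes differed by 0.54 ± 0.29, 0.37 ± 0.28 and -0.11 ± 0.18, so that the probes of this gene did not share a direction. Those with 0.54 and 0.37 were missed on 1 control array each and passed the filter only through the Nd2-mutant arrays.

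Acadl on chromosome 1, the long-chain acyl-CoA dehydrogenase, had the largest value of the role. Its probe ending 9473 read 88.6, 48.9, 61.9 and 42.3 in Nd2-mutant mice 28, 32, 34 and 35, and 8.28, 15.9, 63.0 and 48.5 in control mice 15, 16, 17 and 37. The difference again lay in control mice 15 and 16. Its log2 difference was 0.74 ± 0.36 (SE, limma p = 0.0634, adjusted p = 0.639, exact permutation p = 0.229), and 0.06 without the 2 mice. This probe was missed on 1 control array and passed the filter only through the Nd2-mutant arrays, so its p-values are not used as support. The second tested probe differed by 0.10 ± 0.14, and its last probe was detected on 0 arrays.

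The medium-chain dehydrogenase Acadm differed by 0.35 ± 0.20, and the trifunctional protein subunit Hadhb by 0.11 ± 0.15. Decr1, the dienoyl-CoA reductase needed for unsaturated fatty acids, differed by 0.02 ± 0.19. The short-chain dehydrogenase Acads and the very-long-chain dehydrogenase Acadvl were lower in Nd2-mutant fibroblasts, by -0.28 ± 0.20 and -0.18 ± 0.14. For Acads, as for Dlst and the second Idh3g probe, control mice 15 and 16 were the 2 highest of 8. It read 208 and 225 there, against 148 and 117 in the other control mice and 124 to 147 in Nd2-mutant mice. Without the 2 mice its log2 difference was 0.05. A second Acads probe was detected on 1 array and not tested.

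The 3 genes of the electron transfer flavoprotein system had 6 tested probes, 4 higher and 2 lower, with a median log2 fold change of 0.18. Etfdh on chromosome 3, the oxidoreductase that reduces ubiquinone, had the largest value. It read 209, 129, 114 and 114 in Nd2-mutant mice 28, 32, 34 and 35, and 43.3, 66.8, 148 and 125 in control mice 15, 16, 17 and 37. Control mouse 17 lay above 3 of the Nd2-mutant mice and control mouse 37 above 2. The log2 difference was 0.57 ± 0.32 (SE, limma p = 0.101, adjusted p = 0.648, exact permutation p = 0.257), and 0.01 without control mice 15 and 16. The 3 probes of Etfa, the alpha subunit, differed by 0.21, 0.28 and 0.16, and both probes of Etfb, the beta subunit, by -0.09. The 2 subunits form one dimer, and the smallest unadjusted limma p of their 5 probes was 0.239.

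7 member genes had more than 1 tested probe. The log2 differences of their probes lay close together for Etfb, Etfa (0.16 to 0.28) and Pdhb (0.12 and 0.21), and far apart for Suclg1, Idh3g, Acadl and Acaa2, with opposite signs for Acaa2 alone. The Suclg1 probe ending 6493 read 269, 209, 223 and 226 in Nd2-mutant mice 28, 32, 34 and 35, and 43.9, 91.8, 265 and 250 in control mice 15, 16, 17 and 37, a log2 difference of 0.74 ± 0.43 (SE, limma adjusted p = 0.653). Suclg1 encodes the alpha subunit of succinyl-CoA ligase. Its probe ending 2872 ranged from 1285 to 1483 in Nd2-mutant and from 1106 to 1620 in control mice and differed by 0.03 ± 0.15. On the log2 scale, the value of control mouse 15 minus the mean of the 6 mice other than 15 and 16 was -2.09 for the first Suclg1 probe and -0.37 for the second. For Idh3g it was -1.64 for the probe ending 4368 and 0.15 for the probe ending 7022.

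Probes of one gene also disagreed over the array as a whole. Over the 1850 genes of the array with more than 1 tested probe, the median SD between a gene's centred probe values was highest in control mouse 15 (0.21) and next in control mouse 16 (0.15), against 0.10 to 0.14 in the other 6 mice. Among the 7 member genes it was 0.35 and 0.36 in those 2 mice and 0.05 to 0.26 in the others. The part of this disagreement in the strain differences was not tested.

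**Figure D5:**
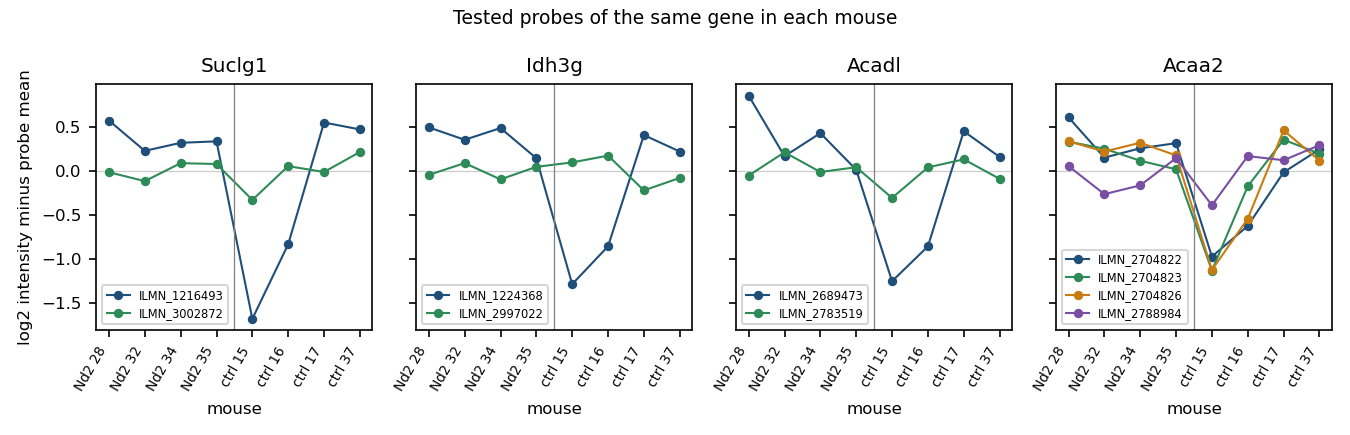
Log2 intensity minus the probe mean in each mouse for the tested probes of Suclg1, Idh3g, Acadl and Acaa2, one colour per probe. Lines only join points of one probe. In each panel at least 1 probe drops in both control mice 15 and 16, while another probe of the same gene stays much closer to its mean.

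Acadm, Etfdh and Idh3g, from the genes with a probe lowest in control mice 15 and 16, are shown with their promoter windows. Each held a short motif of a regulator of mitochondrial genes. Idh3g is among these genes through 1 of its 2 tested probes, and the other was highest in those mice. Etfa, also among them, held a motif too and is not shown. The windows are the 250 bases before the annotated start in RefSeq's table (build GRCm38.p6), printed 5′ to 3′ on the strand of the gene with the motif in capitals, and 31 members had a window, 39 in all. Motifs were searched on both strands. AAGGTCA, the site of the estrogen-related receptors, was in the window of Acadm (chr3:153944644-153944893, minus strand), where it is printed as its reverse complement. It was in 1 of the 39 windows, or 2.56%, against 4.08% of all 32851 windows. GCGCATG, the core of the NRF1 site, was in 5 windows, of Acadm, Etfa, Etfdh and (2 windows) Ogdh, or 12.8%, against 3.24%. The 2 Ogdh windows overlap and hold the same site, which is thus counted in both. This core was shortened after the matches of a longer form had been seen, so its share is not a test of the members. In Etfdh (chr3:79628768-79629017, minus strand) its matches on both strands overlap and form 1 run of capitals. CCGGAAG, the core bound by ETS factors, was in the window of Idh3g (chrX:73786898-73787147, minus strand) and on both strands in that of Cpt2, 2 of 39 or 5.13%, against 6.91%. These matches describe letters only, and no binding was measured.
Acadm: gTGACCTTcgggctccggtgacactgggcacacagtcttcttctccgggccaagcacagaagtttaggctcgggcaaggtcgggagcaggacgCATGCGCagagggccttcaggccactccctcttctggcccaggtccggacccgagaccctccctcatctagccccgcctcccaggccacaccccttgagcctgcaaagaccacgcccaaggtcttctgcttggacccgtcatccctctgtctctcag
Etfdh: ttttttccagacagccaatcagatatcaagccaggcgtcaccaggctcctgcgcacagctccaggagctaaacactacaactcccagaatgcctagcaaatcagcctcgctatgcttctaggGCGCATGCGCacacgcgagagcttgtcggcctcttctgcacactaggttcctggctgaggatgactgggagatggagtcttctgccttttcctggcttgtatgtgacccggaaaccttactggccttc
Idh3g: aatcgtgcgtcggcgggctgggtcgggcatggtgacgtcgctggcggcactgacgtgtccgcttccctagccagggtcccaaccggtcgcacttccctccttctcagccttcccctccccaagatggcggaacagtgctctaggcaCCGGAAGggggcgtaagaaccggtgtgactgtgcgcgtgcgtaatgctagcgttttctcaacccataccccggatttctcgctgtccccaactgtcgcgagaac

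Males were also set against females, in a limma fit that held strain. 1 member gene, Dld, was higher in males at an unadjusted p under 0.05 (all tested genes: 4.6%), 0 were lower (5.24%), and the smallest adjusted p of a member was 0.524. Dld on chromosome 12 read 96.9 and 83.0 in the Nd2-mutant males, 62.2 and 58.1 in the Nd2-mutant females, 74.7 and 109 in the control males, and 52.4 and 75.6 in the control females. Both males lay above both females in the Nd2-mutant strain, and in the control strain the female mouse 37 lay just above the male mouse 16. The log2 difference, male minus female, was 0.45 ± 0.16 (SE, limma adjusted p = 0.524). The count of member genes that differed by sex at an unadjusted p under 0.05 was 0 without Nd2-mutant mouse 35 (all tested genes: 5.8%) or control mouse 17 (8.74%), 2 without Nd2-mutant mouse 34 (7.79%) and 10 without control mouse 37 (19.7%).

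The member probes were higher in males in 34 of 41 cases (82.9% against 52.4% of all tested probes), with a median log2 difference of 0.18 against 0.01. Control mouse 15 was 1 of the 4 females. Without it, 25 of 41 were higher in males (61.0% against 49.5%) and the median was 0.03. For the interaction of strain and sex, 0 member genes had an unadjusted limma p under 0.05 (all tested genes: 2.19%), and the smallest was 0.102.

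Other genes of the same pathways were read from 3 lists: partners of pyruvate metabolism and the TCA cycle, further enzymes of fatty acid oxidation, and the transcriptional regulators of both. Of 61 genes listed, 54 were on the array and 35 were tested with 45 probes. 3 of the 35 were higher at an unadjusted p under 0.05 by limma (all tested genes: 5.17%), 0 were lower (3.89%), and 0 passed the adjusted threshold. The median log2 fold change was 0.12 for the pyruvate and TCA list and 0.13 for the fatty acid oxidation list, and 0.04 and 0.06 without control mice 15 and 16.

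Pdk1, the kinase that inactivates pyruvate dehydrogenase, read 194, 240, 245 and 183 in Nd2-mutant mice 28, 32, 34 and 35, and 102, 122, 202 and 113 in control mice 15, 16, 17 and 37. Control mouse 17 alone reached the Nd2-mutant range. The log2 difference was 0.65 ± 0.20 (SE), with a limma p of 0.0091, an adjusted p of 0.639 and an exact permutation p of 0.0857. Acsl1, which activates long-chain fatty acids to their CoA esters, had no overlap between the strains at its 1 tested probe. It read 35.8 to 44.5 in Nd2-mutant and 20.9 to 31.7 in control mice, a log2 difference of 0.39 ± 0.14 (SE, limma p = 0.0185, adjusted p = 0.639, exact permutation p = 0.0286). A probe of Acsl3, of the same family, differed by 0.53 ± 0.22 (limma adjusted p = 0.639, exact permutation p = 0.114). Without control mice 15 and 16 the 3 log2 differences were 0.45, 0.24 and 0.47, above 0 as with all mice, and none had an unadjusted limma p under 0.05.

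Of the transcriptional regulators, Esrra and Pparg were tested, with log2 differences of -0.30 ± 0.17 and 0.29 ± 0.44 (SE). Ppara, Ppard and Ppargc1a, the coactivator of mitochondrial biogenesis, were detected on 0 arrays.

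Markers of other cell types and of the fibroblasts themselves also differed between mice. Of the 15 tested probes of the 13 fibroblast markers, 10 were higher in Nd2-mutant mice and 5 lower, with a median log2 difference of 0.06. Among them, 1 probe of the proteoglycan gene Dcn and the probe of Lum were higher in all Nd2-mutant mice than in all control mice, with log2 differences of 0.82 and 0.88 (limma adjusted p = 0.639 and exact permutation p = 0.0286 for both), and control mouse 16 was lowest for both. The other Dcn probe differed by 0.12. Of the 6 tested endothelial markers, 5 were lower in Nd2-mutant mice and Tek was higher, with a median log2 difference of -0.28. Without control mice 15 and 16 that median was 0.02. Emcn had the largest difference of these markers, -1.20 (log2, limma adjusted p = 0.639, exact permutation p = 0.0286). Acta1, on the skeletal muscle list, was lower in Nd2-mutant mice by -0.86 (exact permutation p = 0.0857). Of the muscle list 3 of 8 genes were tested, with a summed intensity of 315 to 1013 in Nd2-mutant and 812 to 1304 in control mice, and Ckm, Myh2 and Myh4 were detected on 0 arrays. The 6 of 10 macrophage markers tested summed to 281 to 1511 in Nd2-mutant mice, with the highest value in mouse 35, and to 232 to 573 in control mice, with Ptprc detected on 0 arrays. The 2 keratinocyte markers tested, of 8 on the array, summed to 189 to 1118 and 303 to 903. The part of these markers in the member values was not tested.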

How the data were processed

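RNA of cultured skin fibroblasts from 8 mice of 12 months was measured on 8 Illumina arrays, 1 per mouse and 4 per strain, with 2 males per strain. The authors extracted the data in GenomeStudio (version not given in the sources used here), applied quantile normalization to the intensity values and subtracted background where necessary. The deposited intensity values are linear and run from -12.3 to 13935. A detection p-value for every probe and array was deposited beside them. Both deposited tables, named for normalized and non-normalized data, hold the same values, so that only normalized data were analysed. Sorted by size, the values of any 2 arrays differed by at most 0.147.

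Negative intensities were raised to 0 and log2(intensity + 16) was analysed. Probes detected (p under 0.01) on all 4 arrays of at least 1 strain were tested, in all 10414 probes of 8003 genes. Strains were compared with a 2-sided limma fit (limma 3.58.1, lmFit and eBayes, R 4.3.3). P-values were adjusted by Benjamini-Hochberg over every tested probe, with a threshold of 0.05. Single probes also had an exact permutation test of 4 against 4 mice. Values without overlap always give its lowest p, 0.0286, which then adds nothing to the lack of overlap. Sex was fitted beside strain, and their interaction in a further fit. The steps were tested on simulated data. Alternatives were 1 or 50 added in place of 16, other detection filters, array weights, sex as a term, each sex alone, the methods' t-test, each mouse left out in turn and, added after the data were seen, control mice 15 and 16 left out together. Tables and plots were made in Python 3.11.15.

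The members and lists were chosen with earlier results of these data known. Members described mouse by mouse were those with a probe at an unadjusted p under 0.05 for strain, sex or interaction, those without overlap between the strains, and the largest fold change of each role. Idh3a, Mdh2, Acads and Suclg1 were described in this way after their values were seen. Each array was counted as 1 mouse, by its number in the labels. The core searched for NRF1 was shortened after the matches of a longer form had been seen. 1 gene of the pathway lists is not reported here.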

Additional observations from a re-analysis of the deposited data

Results flagged for a closer look

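In 4 of the 82 groups (41 member probes, 4 mice of each strain), 1 mouse lay apart: its gap to the nearest of the other 3, divided by the whole range of the group, both on the log2(intensity + 16) scale, passed Dixon's limit at the 95% level. About 1 in 20 groups, here 4.1, would pass by chance. The intensities below are linear. 3 of the 4 were in control mice, and each was a low value of control mouse 15. For Mdh2 the gap was 0.999 of the range, with 437 against 643 in the other 3 control mice. For Idh3a it was 0.917, with 151 against 228 to 237. For Decr1 it was 0.846, with 16.6 against 33.1 to 36.9. In Nd2-mutant mice it was Pcx in mouse 35, with a gap of 0.847 of the range and an intensity of 14.4 against 18.6 to 19.5.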

How the results depend on the processing

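Across the 19 alternatives for the strain comparison 0 member probes passed the adjusted threshold, and the smallest adjusted limma p of any member probe in any of them was 0.232. The median log2 fold change of the members was -0.03 without control mice 15 and 16, 0.02 without mouse 15, 0.04 with array weights, and between 0.10 and 0.21 otherwise. Of the 41 probes, 17 kept the direction of their log2 difference under every alternative. The cause of the changes below was not tested. The number of member genes higher at an unadjusted p under 0.05, 3 with all mice, was 1 in females only, 1 in males only, 1 with the methods' t-test and 0 without control mice 15 and 16. It ran from 1 to 8 with single mice left out, with 1 without Nd2-mutant mouse 28 or control mouse 16, 8 without control mouse 17 and 6 without control mouse 37. The number lower, 0 with all mice, was 1 with array weights, in males only, with no filter on detection, with the methods' t-test and without control mice 15 and 16, and ran from 0 to 2 with single mice left out, with 2 without control mouse 15 and 1 without control mouse 37. Probes without overlap, 2 with all mice, numbered 8 in females only, 17 in males only and 6 without control mice 15 and 16, where fewer mice overlap by construction, and from 2 to 6 with single mice left out (6 without control mouse 15, 5 without 17 or 37, 4 without Nd2-mutant mouse 32 or 35). The shares of all tested probes without overlap were not counted in these settings, so these counts are not a result about the members. Member genes that differed by sex, 1 with all mice, numbered 2 with array weights and ran from 0 to 10 with single mice left out: 10 without control mouse 37, 2 without Nd2-mutant mouse 34, and 0 without Nd2-mutant mouse 35 or control mouse 17. The count for the interaction was 0 wherever it was fitted. For gene counts in this paragraph without a share of all tested genes given above, that share was not counted. Such counts are not read as a result about the members.

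With array weights, the log2 difference of 9 probes turned sign: Pdha1 -0.025, Pdhb (probe ending 1839) -0.064, Idh3b -0.018, Mdh2 -0.055, Suclg1 (probe ending 2872) -0.081, Me2 -0.14, Cpt2 -0.0079, Decr1 -0.11 and Etfa (probe ending 0655) -0.054. In females only, the log2 difference of 4 probes turned sign: Pdha1 -0.064, Idh3g (probe ending 7022) -0.034, Acaa2 (probe ending 8984) 0.039 and Etfb (probe ending 4414) 0.051. In males only, the log2 difference of 6 probes turned sign: Pdhb (probe ending 6570) -0.18, Idh3b -0.016, Mdh2 -0.30, Suclg1 (probe ending 2872) -0.087, Me2 -0.10 and Acadl (probe ending 3519) -0.0063. Without control mice 15 and 16, the log2 difference of 15 probes turned sign: Pdha1 -0.097, Pdhb (probe ending 1839) -0.24, Cs -0.0057, Fh1 -0.026, Mdh2 -0.12, Suclg1 (probe ending 6493) -0.15, Suclg1 (probe ending 2872) -0.093, Mdh1 -0.055, Me2 -0.23, Acaa2 (probe ending 4823) -0.096, Acaa2 (probe ending 4826) -0.026, Acads 0.047, Decr1 -0.13, Etfa (probe ending 9966) -0.078 and Etfa (probe ending 0655) -0.13. With single mice left out, 10 probes turned sign at least once: Me2 from -0.19 to 0.18, Idh3g (probe ending 7022) from -0.065 to 0.066, Decr1 from -0.15 to 0.092, Dld from -0.17 to 0.11, Mdh2 from -0.16 to 0.13, Idh3b from -0.035 to 0.096, Pdhb (probe ending 1839) from -0.068 to 0.39, Pdhb (probe ending 6570) from -0.015 to 0.23, Suclg1 (probe ending 2872) from -0.077 to 0.10 and Etfb (probe ending 7895) from -0.17 to 0.0010.

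No paired analysis was possible because mouse numbers differ between the strains. Alternatives that start from non-normalized values and a block for the chip were not run, since both deposited tables held the same normalized values and no chip is named. Signal over background limits the reading of Sucla2 and Cpt1a, whose probes were detected on 0 arrays, and of the low Acaa2 and Acadl probes, which were missed on 1 control array each.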
